A study of Mus musculus with 4 samples.

Results

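The erythroid-like cells of mouse embryoid bodies were described, that is, the cells whose RNA held a large share of hemoglobin transcripts. They were chosen by their hemoglobin UMIs: a barcode counted where it held at least 500 genes, at most 15% of its unique molecular identifiers (UMIs, each standing for 1 captured RNA molecule) came from mitochondrially encoded genes, and the 7 hemoglobin genes Hbb-bh1, Hbb-y, Hba-x, Hba-a1, Hba-a2, Hbb-bt and Hbb-bs together gave at least 2% of its UMIs. Of the 13808 barcodes that passed the first 2 conditions in the 4 libraries, 278 were erythroid-like. Since hemoglobin chose them, their hemoglobin share is a description and not a finding.

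The libraries came from embryoid bodies, clumps of differentiating cells grown from R1, an established line of mouse embryonic stem cells. There was 1 library for each of 4 conditions: 7.33 days in normoxia and then 16 h in hypoxia (day 8 hypoxia), 8 days in normoxia (day 8 normoxia), 8 days in normoxia and then 48 h in hypoxia (day 10 hypoxia), and 10 days in normoxia (day 10 normoxia). All 4 used the same line, and no source used here gives the oxygen level. With 1 library per condition there is no replicate check, library and condition cannot be told apart, and intervals are at 95% and cover counting error only.

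Red cells of the early embryo arise in the yolk sac as a primitive wave, whose cells make the embryonic globins first and adult globins later, and a definitive wave follows that makes mainly adult globins. Hemoglobin needs alpha-like and beta-like chains together with heme, so maturing cells take up iron through the transferrin receptor, run the heme pathway in mitochondria, build a spectrin-based membrane skeleton, and leave the cell cycle. In low oxygen, the prolyl hydroxylases no longer mark the HIF transcription factors for removal, and HIF raises genes of glucose uptake, glycolysis and oxygen sensing in most cell types.

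The beta-like genes lie together on mouse chromosome 7 and the alpha-like genes on chromosome 11. RefSeq promoter sequence of build GRCm38.p6 was found for 6 of the 7 hemoglobin genes. The 200 bases before the RefSeq start of 4 of them are shown because they pair an embryonic with an adult gene in each cluster. The cells below differed in the shares of these genes among their hemoglobin UMIs. Hba-x is the embryonic alpha-like gene (zeta), with its window at chr11:32276400-32276599 on the plus strand, and Hba-a1 is an adult alpha gene, with its window at chr11:32283472-32283671 on the plus strand. Hbb-y is an embryonic beta-like gene (epsilon-y), with its window at chr7:103853208-103853407 on the minus strand, and Hbb-bs is an adult beta gene, with its window at chr7:103827929-103828128 on the minus strand. The sequences run 5′ to 3′, and capitals mark the promoter word CACCC as well as the promoter word CCAAT, together with GATA motifs (the letters AGATAA, where the first may also be T and the last may also be G) and TATA-type words (the letters ATAAA, or else the letters TATAA), each searched on both strands, some of which overlap.
Hba-x: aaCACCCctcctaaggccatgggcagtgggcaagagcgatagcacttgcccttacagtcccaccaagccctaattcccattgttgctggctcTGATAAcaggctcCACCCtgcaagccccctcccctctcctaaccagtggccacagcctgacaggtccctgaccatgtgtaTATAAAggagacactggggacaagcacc
Hba-a1: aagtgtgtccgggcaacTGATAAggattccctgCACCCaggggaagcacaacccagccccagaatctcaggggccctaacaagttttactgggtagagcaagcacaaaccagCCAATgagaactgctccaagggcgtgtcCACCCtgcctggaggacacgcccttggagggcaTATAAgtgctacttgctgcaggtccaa
Hbb-y: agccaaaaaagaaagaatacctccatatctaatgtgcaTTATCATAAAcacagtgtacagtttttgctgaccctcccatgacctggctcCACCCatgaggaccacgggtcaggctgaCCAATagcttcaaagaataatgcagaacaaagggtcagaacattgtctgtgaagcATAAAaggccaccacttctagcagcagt
Hbb-bs: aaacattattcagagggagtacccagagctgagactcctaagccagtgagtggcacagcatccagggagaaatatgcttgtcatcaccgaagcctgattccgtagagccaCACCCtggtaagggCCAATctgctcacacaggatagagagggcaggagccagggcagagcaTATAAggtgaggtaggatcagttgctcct
All 4 windows held CACCC and a TATA-type word, words that 45.5% and 36.1% of 32851 RefSeq promoter windows of the same length hold. CCAAT stood in Hba-a1, Hbb-y and Hbb-bs, against 29.3% of all windows, and a GATA motif in Hba-x, Hba-a1 and Hbb-y, against 21.4%. The word nearest to the start was TATA-type in each, beginning 28 bases before it in Hbb-y, 27 in Hba-a1 and 29 in Hbb-bs, while Hba-x held a pair of overlapping TATA-type words that begin 28 and 27 bases before it. These are matches of letters and say nothing about which factor bound there.

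Erythroid-like cells were nearly all cells of day 8. They made up 148 of 3345 kept barcodes in day 8 hypoxia (4.42%, exact binomial interval 3.75% to 5.18%) and 110 of 3168 in day 8 normoxia (3.47%, 2.86% to 4.17%). They were 7 of 4616 in day 10 hypoxia (0.152%, 0.0610% to 0.312%) and 13 of 2679 in day 10 normoxia (0.485%, 0.259% to 0.828%). The intervals of the 2 conditions overlap at both ages. Such overlap does not show that the shares are alike, and their difference was not tested. A median erythroid-like cell held 13522.5 UMIs and 2276.5 genes in day 8 hypoxia and 17921.5 UMIs and 3171 genes in day 8 normoxia. At day 10 the medians were 4777 UMIs and 847 genes in hypoxia and 13737 UMIs and 1541 genes in normoxia, so the 7 cells of day 10 hypoxia were the shallowest. No barcode was erythroid-like in more than 1 library, and at most 5 kept barcodes were shared by any pair of libraries.

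Hemoglobin took a median of 14.0% of the UMIs of an erythroid-like cell in day 8 hypoxia and 18.1% in day 8 normoxia, with highest cells at 44.9% and 50.5%. It took a median of 3.42% in day 10 hypoxia, where the highest cell had 9.48%, and 25.1% in day 10 normoxia, where the highest had 62.0%. At day 8 few cells lay near the 2% limit: 7 and 11 kept barcodes had 1% to 2% hemoglobin in hypoxia and normoxia, and 4 and 3 had 2% to 3%. In day 10 hypoxia the limit ran through the group, with 6 barcodes just under it and 3 of the 7 members just over it, and in day 10 normoxia 1 barcode lay on each side. Erythroid-like cells held 96.8%, 95.7%, 35.2% and 97.5% of the hemoglobin UMIs of the library, in the order day 8 hypoxia, day 8 normoxia, day 10 hypoxia and day 10 normoxia. These totals count all barcodes, also those that failed the filters. Other kept cells held little: their median share was 0.00393% in day 8 hypoxia, 0.00529% in day 8 normoxia and 0 at day 10, although 61.5% and 73.8% of them had at least 1 hemoglobin UMI at day 8. Free RNA in the droplets can give such single UMIs, so a lone hemoglobin UMI does not mark a cell.

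**Figure D1:**
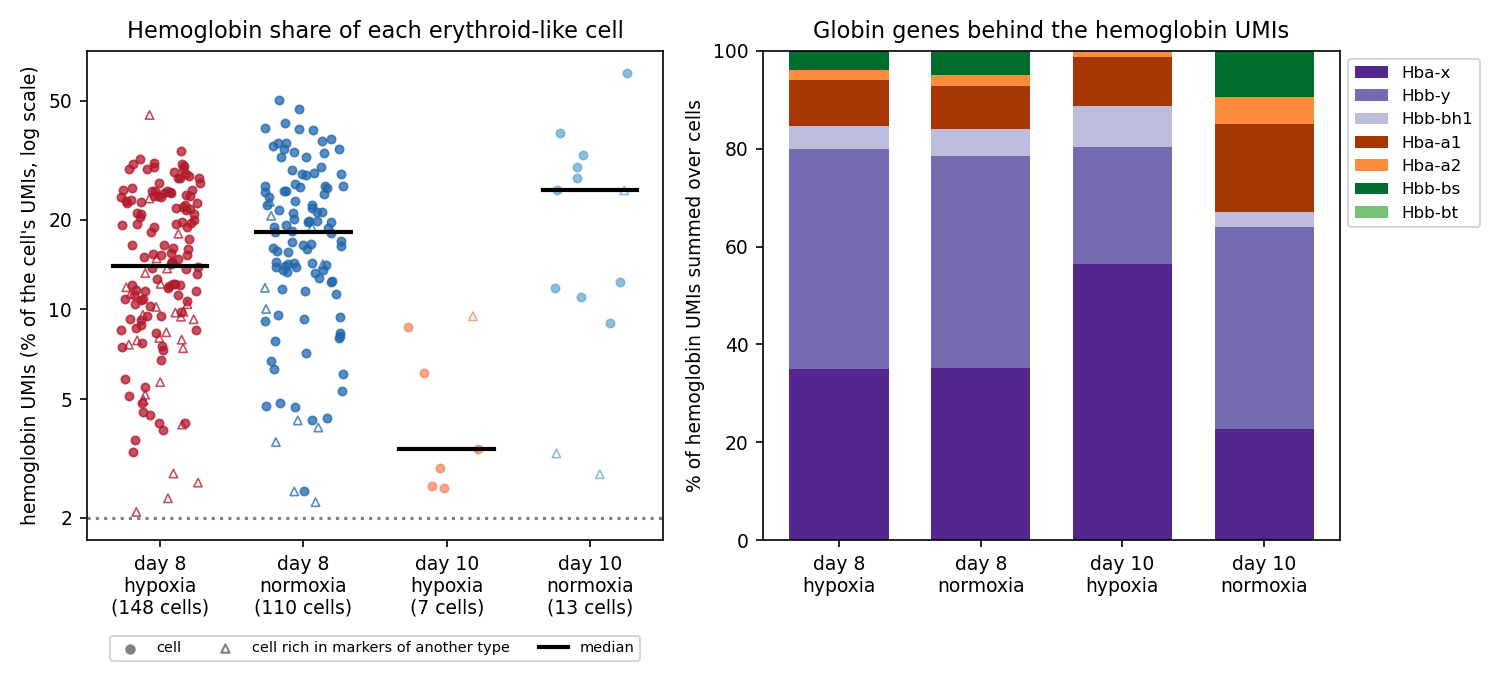
Left, percent of each erythroid-like cell's UMIs from the 7 hemoglobin genes (log scale), 1 point per cell, with triangles for cells rich in markers of another cell type, bars for medians and the 2% limit dotted. Right, the share of each globin gene among the hemoglobin UMIs summed over the erythroid-like cells of a library. Hba-x and Hbb-y dominate in each library, and the adult genes take 32.97% in day 10 normoxia.

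The label was checked against 24 other erythroid marker genes that the rule did not use. Every one of the 278 cells held at least 3 UMIs of these markers, which is a low bar. All 7 and 11 day 8 barcodes of 1% to 2% hemoglobin, hypoxia before normoxia, also passed it. Smim1 alone was seen in 85.4% of the other kept cells in day 8 hypoxia and 88.0% in day 8 normoxia. The summed level of the markers was 7228 CPM in day 8 hypoxia and 9102 CPM in day 8 normoxia, against 349 and 355 CPM in the other kept cells (CPM, here and below, are UMIs per 1000000 UMIs outside the 7 hemoglobin genes, summed over cells). All but Tspo2, a late red cell membrane protein listed at 0 in every erythroid-like cell, were found at day 8. Of the 23 markers that averaged 20 CPM or more at day 8, 22 were at least 1.5-fold above the other cells in both libraries, where 13.6% of all 5204 genes measured were and 27.8% were as far below. Alas2, the enzyme that starts heme synthesis in red cells, was seen in 92.6% of erythroid-like cells in day 8 hypoxia and 91.8% in day 8 normoxia. It was seen in 2.91% and 5.79% of other cells, which were deeper, with medians of 19028 and 23264 UMIs outside hemoglobin, against 11065 and 14466 in the erythroid-like cells. Thinned to 3000 UMIs, which left out 18 and 14 erythroid-like and 82 and 39 other cells, the shares were 83.8% and 82.3%, against 0.546% and 0.729%.

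The genes that stood highest over the other cells of the same library were those of the red cell surface, heme and iron. Alas2 had 804 CPM in day 8 hypoxia and 1029.6 CPM in day 8 normoxia, against 1.55 and 2.54 CPM in the other cells. The anion exchanger Slc4a1 (band 3) was 7.75 and 8.06 above the other cells on the log2 scale in hypoxia and normoxia, and the blood group protein Kel 7.37 and 8.05. Car2, the carbonic anhydrase of red cells, lay 7.48 and 7.32 above, and Slc25a37 (mitoferrin), which carries iron into mitochondria, 7.38 and 6.95. The membrane skeleton gave Add2 (beta-adducin) at 7.005 and 7.08, and the ammonia channel Rhag was at 6.41 and 7.37. Slc25a21, a mitochondrial carrier, was at 6.77 and 7.66, and Klf1, the transcription factor that drives beta globin, at 5.78 and 7.04. Also among the highest 20 were Hsd3b6, Pkhd1l1, Ermap, Acp5, Ctse, Grap2, Cited4, Trim10 and Aqp8. By list, 17 of 20 measured membrane genes, 13 of 14 heme genes, 12 of 14 globin partners and red cell enzymes, 10 of 18 erythroid transcription factors and 6 of 10 iron genes were higher than in other cells in both day 8 libraries. Of all 5204 genes measured, 13.6% were.

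Of 6 measured genes of early blood progenitors, 3 (Hhex, Lyl1 and Itga2b) were higher and 2 (Etv6 and Meis1) lower than in other cells in both day 8 libraries, with median log2 ratios of 1.54 in hypoxia and 1.32 in normoxia. The list summed to 340 CPM in day 8 hypoxia and 331 CPM in day 8 normoxia, against 438 and 426 CPM in the other cells. Runx1, a factor needed for the first definitive blood cells, was seen in 29.7% of erythroid-like cells in day 8 hypoxia and 42.7% in day 8 normoxia, against 32.5% and 33.9% of other cells. Thinned to 3000 UMIs, these shares were 18.5% and 13.5%, against 9.53% and 8.71%. Of list members under 20 CPM, the stem cell factor receptor Kit had 10.1 CPM in day 8 hypoxia and 5.56 CPM in day 8 normoxia, and Gata2, which precedes Gata1 in blood progenitors, had 12.99 and 11.1 CPM, while Gata1 had 73.6 and 107 CPM. Genes of nuclear oxidative phosphorylation were near the level of other cells, with 5 of 78 higher and 1 lower. Of 41 measured G2 and M phase genes, 2 were higher and 22 lower than in the other cells in both libraries. Over all 5204 genes measured, 13.6% were higher and 27.8% lower in both.

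Not every erythroid-like barcode was erythroid in content alone. In day 8 hypoxia, 30 of 148 cells, and in day 8 normoxia 11 of 110, also held at least 2000 CPM of another cell type's markers, with at least 5 such UMIs. The counts at day 10 were 1 of 7 in hypoxia and 3 of 13 in normoxia. Fibroblast markers such as collagens were the reason in 23 and 5 of the day 8 cells and megakaryocyte markers in 6 and 5. Their median hemoglobin share was 9.36% in day 8 hypoxia and 10.0% in day 8 normoxia, against 16.2% and 18.7% in the other erythroid-like cells, and their median gene number was higher, 2743.5 and 4066, against 2156 and 3157. In day 8 hypoxia, 10 of the 30, all rich in fibroblast markers, formed a set of closely alike profiles. Barcodes of at least 3000 UMIs were joined where the chi-square over its degrees of freedom of a pair was under 1.5. Pairs within the set lay between 0.917 and 1.67 with a median of 1.196, near the sampling noise. Other pairs of the library began at 1.68 with a median of 7.88, and by the joining rule none of them could lie under 1.5. No such set was found in the other libraries. These barcodes are counted below as the rule has it, and the main counts and many genes are also given without the 30 and 11 cells ("without mixed cells"), a choice made after seeing the data. Of the summed macrophage markers there were 8.18 and 14.8 CPM in day 8 hypoxia and normoxia, with C1qa, C1qb, C1qc, Adgre1, Lyz2 and Ptprc at 0 in both, against 53.7 and 103 CPM in the other cells.

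Embryonic globins dominated. Hbb-y gave 44.8% of the hemoglobin UMIs in day 8 hypoxia, 43.3% in day 8 normoxia, 23.9% in day 10 hypoxia and 41.2% in day 10 normoxia. Hba-x gave 35.0%, 35.2%, 56.5% and 22.8% in the same order, and Hbb-bh1, the other embryonic beta-like gene, 4.71%, 5.53%, 8.27% and 3.06%. Together the 3 embryonic genes made up 84.6% in day 8 hypoxia and 84.0% in day 8 normoxia, which differed by less than 1 percentage point. They made up 88.7% in day 10 hypoxia and 67.03% in day 10 normoxia, from 1463 hemoglobin UMIs in the 7 cells of day 10 hypoxia and 34283 in the 13 cells of day 10 normoxia.

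Adult globins were present beside them in each library. The adult alpha genes Hba-a1 and Hba-a2, near-identical copies whose reads cannot be fully assigned to one of them, together gave 11.4% of hemoglobin UMIs in day 8 hypoxia and 11.1% in day 8 normoxia, 11.2% in day 10 hypoxia and 23.4% in day 10 normoxia. The adult beta genes Hbb-bs and Hbb-bt, likewise close copies, gave 4.02% and 4.97% at day 8, and 0.137% and 9.53% at day 10, hypoxia before normoxia. In day 10 normoxia 1 of the 13 cells gave 1402 of the 3267 adult beta UMIs. The median adult beta share of a cell was 0.730% and 0.485% at day 8, and 0 and 4.02% at day 10, in the same order. Alpha-like and beta-like UMIs were nearly balanced in 3 libraries: alpha-like genes gave 46.5% in day 8 hypoxia, 46.2% in day 8 normoxia and 46.2% in day 10 normoxia. In day 10 hypoxia, where the highest cell had 9.48% hemoglobin, they gave 67.7%. Day 8 normoxia gave 59.6% in its 11 cells of 2% to 5% hemoglobin and 69.4% in its 13 cells of 5% to 10%. In the same bins day 8 hypoxia gave 46.4% (14 cells) and 49.8% (31 cells). Adult beta genes gave 3.31% and 0.311% in these bins of day 8 normoxia, and 2.18% and 1.27% in day 8 hypoxia.

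Single cells of a library held globins in different proportions. These values are shares of 1 total in each cell, often of few hemoglobin UMIs, so a higher share of one globin leaves less for the others. Single cells of day 8 hypoxia ranged between 0 and 95.5% Hbb-y among their hemoglobin UMIs with a median of 41.9%, and those of day 8 normoxia between 0 and 84.9% with a median of 43.1%. Without mixed cells, 8 of 118 cells of day 8 hypoxia and 12 of 99 of day 8 normoxia had under 5% Hbb-y. In these cells Hba-x gave 71.4% of hemoglobin UMIs in hypoxia and 64.2% in normoxia, and Hbb-bh1 14.2% and 20.5%. In the remaining cells Hba-x gave 35.2% and 34.1%, and Hbb-bh1 4.78% and 4.85%. The cells under 5% Hbb-y also had less hemoglobin, a median of 7.22% in hypoxia and 5.69% in normoxia, against 18.6% and 19.8%. In day 8 normoxia their summed G2 and M phase level was 7628 CPM, against 3183 CPM in the remaining cells, and that of heme genes 4792 CPM, against 7027 CPM. In day 8 hypoxia the G2 and M phase levels were 1812 and 2049 CPM.

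**Figure D2:**
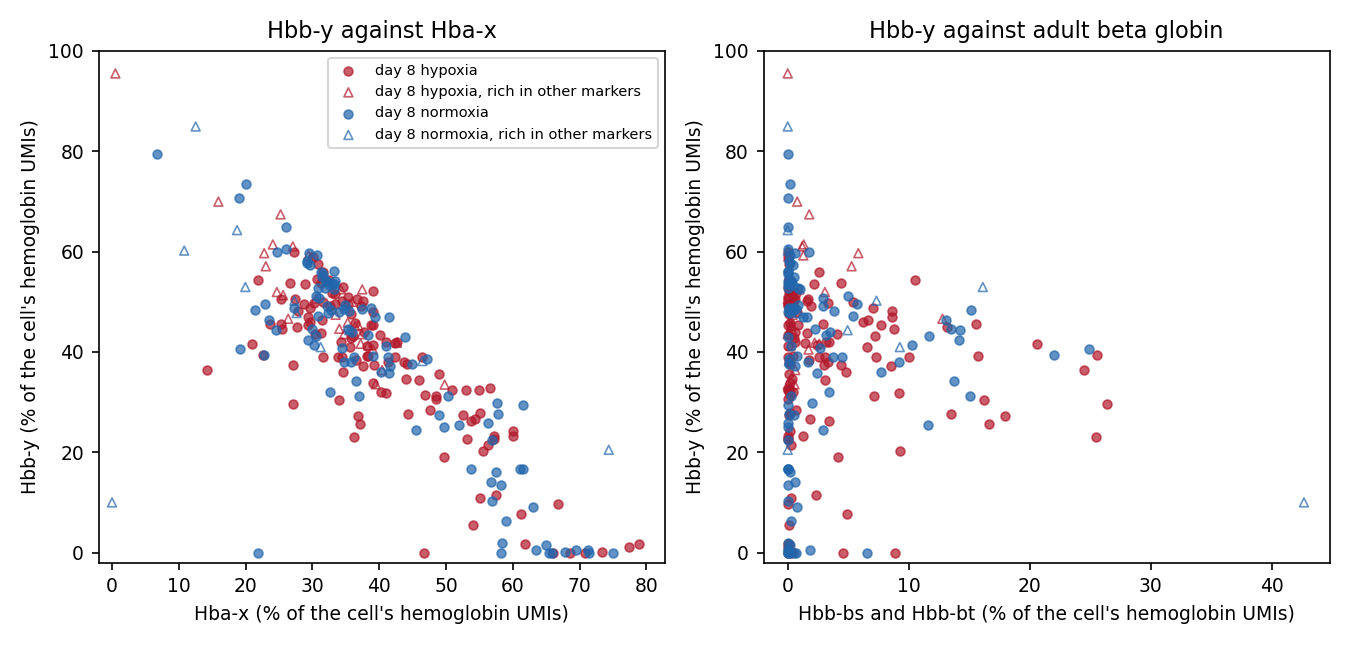
Hbb-y share of each day 8 erythroid-like cell's hemoglobin UMIs against its Hba-x share (left) and against its adult beta share, Hbb-bs with Hbb-bt (right), 1 point per cell, in red for hypoxia and blue for normoxia, with triangles for cells rich in markers of another type. Cells run from high Hba-x with almost no Hbb-y to Hbb-y shares mostly up to about 60%, in both conditions, and most cells of high adult beta also hold Hbb-y, as most members do.

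Adult beta globin was carried by a subset of cells that held embryonic globin as well. Without mixed cells, adult beta genes gave under 2% of hemoglobin UMIs in 67 of 118 cells of day 8 hypoxia and 68 of 99 of day 8 normoxia, and at least 5% in 30 and 18 cells, with highest cells at 26.4% and 24.9%. In the cells of at least 5%, Hbb-y still gave 41.2% of hemoglobin UMIs in hypoxia and 41.4% in normoxia. Of the 80 and 62 cells with at least 3 Hbb-bs UMIs, 77 and 61 also held at least 3 of Hbb-y. Both globins are part of the rule, and with mixed cells included 144 of 148 and 105 of 110 members held Hbb-y. This overlap therefore does not set the adult beta cells apart from the other members. Without mixed cells, those of at least 5% adult beta had more hemoglobin, medians of 24.03% and 28.4%, against 12.2% and 16.2% in those under 2%. Their Alas2 was 1354 and 1550 CPM, against 904 and 896 CPM. Their S phase genes summed to 348 and 660 CPM, against 726 and 1628 CPM. Over all members, mixed cells included, the highest adult beta shares of a cell were 26.4% in hypoxia and 42.7% in normoxia. The lowest embryonic shares of a cell were then 52.1% and 13.6%.

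Across the range of hemoglobin, erythroid genes and cell cycle genes went opposite ways. In day 8 hypoxia, cells of 20% to 40% hemoglobin had 6992 CPM of heme genes and those of 5% to 10% had 3589 CPM. In day 8 normoxia the same bins had 7777 and 4815 CPM. G2 and M phase genes summed to 1188 CPM at 20% to 40% hemoglobin and 2847 CPM at 5% to 10% in day 8 hypoxia, and to 2229 and 5289 CPM in day 8 normoxia, where the 11 cells of 2% to 5% hemoglobin had 4599 CPM. S phase genes at 20% to 40% hemoglobin had 307 CPM in day 8 hypoxia and 460.3 CPM in day 8 normoxia, and at 10% to 20% 793 and 1763 CPM. Bpgm, which makes the 2,3-bisphosphoglycerate that loosens oxygen from hemoglobin, had 220.3 CPM in the 20% to 40% bin and 43.2 CPM in the 5% to 10% bin of day 8 hypoxia, and 266 and 56.1 CPM in day 8 normoxia. The bin of 5% to 10% held 31 cells in hypoxia and only 13 in normoxia, and fibroblast markers moved with the bins, 5820.3 CPM at 5% to 10% and 273 CPM at 20% to 40% in day 8 hypoxia. Their part in these gradients was not tested.

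**Figure D3:**
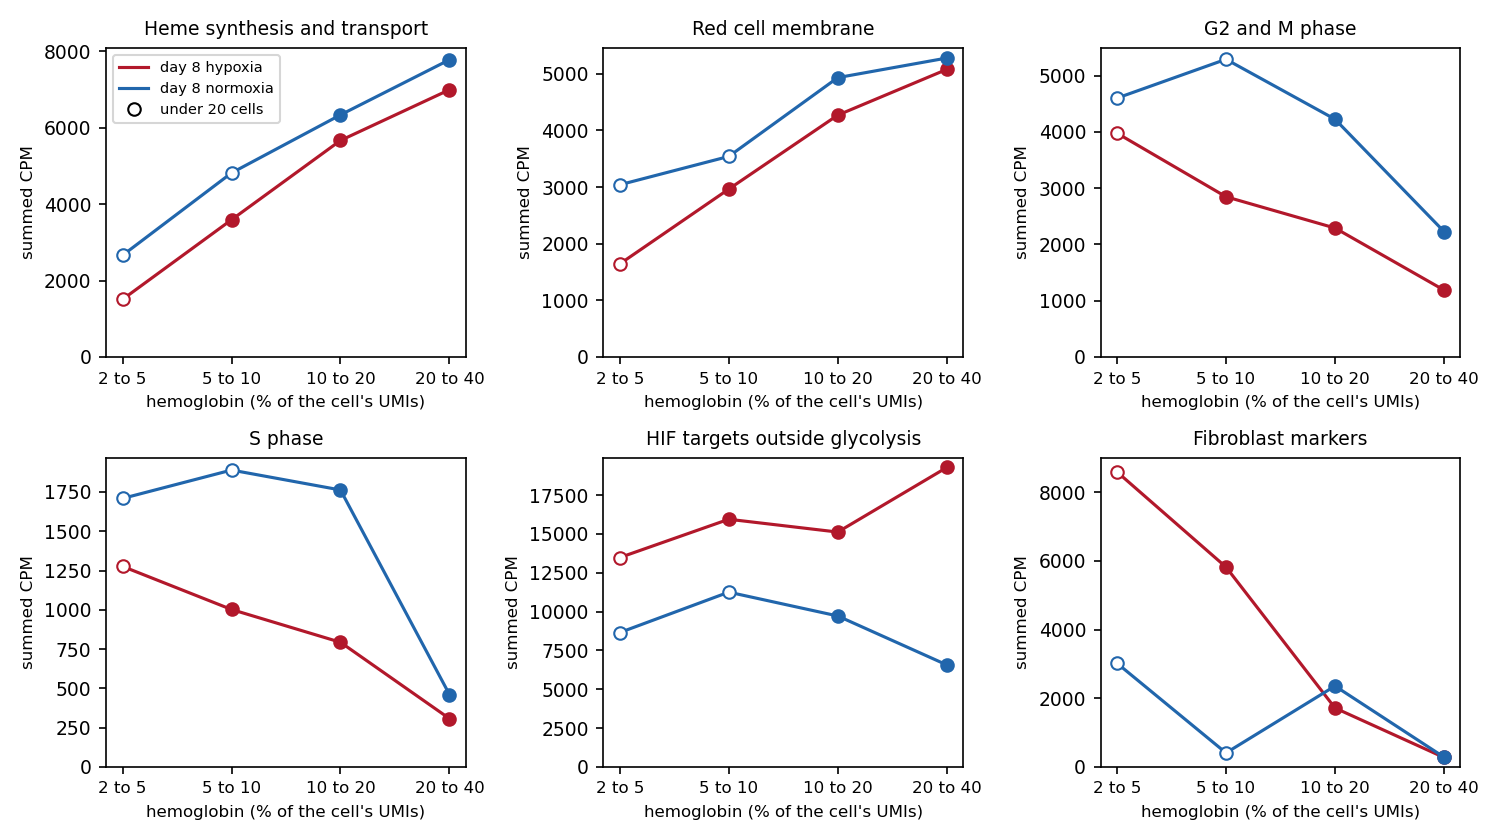
Summed level of 6 gene lists (CPM outside hemoglobin, linear axes) in day 8 erythroid-like cells binned by hemoglobin share, red for hypoxia and blue for normoxia, with open symbols for bins of under 20 cells. Heme and membrane genes are higher in cells of more hemoglobin, and cell cycle genes are lowest in the 20% to 40% bin in both conditions, while HIF targets are higher in hypoxia in each bin shown.

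The design sets hypoxia against normoxia at each age, so the erythroid-like cells of day 8 hypoxia were set against those of day 8 normoxia. A gene was called higher or lower where the log2 ratio of CPM + 1 passed 1.5-fold, with no test, since each condition has 1 library. Of 5204 genes that averaged 20 CPM or more, 680 (13.1%) were higher and 1275 (24.5%) lower in hypoxia, with a median log2 ratio of -0.18. Without mixed cells 417 (9.02%) were higher and 1661 (35.9%) lower of 4622. Counts of a list are read against these shares. In the other kept cells, which gave many more UMIs, 4.48% of 6801 genes were higher and 6.94% lower. Scaled by TMM factors, 890 genes were higher and 948 lower, so the split between the directions depends on the scaling, under which the median of all ratios lay 0.15 higher. The hypoxia cells were shallower, and their markers of other types differed: fibroblast markers summed to 3541 CPM in day 8 hypoxia, against 1458 CPM in day 8 normoxia, endothelial ones to 415 CPM, against 119 CPM, and megakaryocyte ones to 272 CPM, against 728 CPM. The part of depth and of these markers in the ratios was not tested.

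HIF targets were higher in hypoxia as a group. Of the 63 targets outside glycolysis listed, 45 were measured, of which 40 were higher and 2 lower (without mixed cells 32 and 1 of 40), with a median log2 ratio of 1.29, against -0.18 over all genes. Of all genes 13.1% were higher, and 9.02% without mixed cells. One of the 2 lower targets was Tfrc, described with the iron genes. The other kept cells had 42 of 47 higher with a median of 1.52. Slc2a1, the glucose transporter GLUT1 (mm10 chr4:119108711-119137983, plus strand), had 721 CPM in hypoxia, against 146 CPM in normoxia, a log2 ratio of 2.29 (2.10 to 2.50), where the other cells had 1.20. Egln3, the HIF prolyl hydroxylase that HIF itself induces, had 97.7 CPM, against 18.5 CPM, and Egln1, its main relative, 176 CPM, against 48.8 CPM (log2 2.34 and 1.83, and 2.96 and 2.46 in the other cells). Without mixed cells Egln1 stood at 0.91. The growth factor gene Vegfa was at 58.7 CPM, against 16.1 CPM in normoxia (log2 1.81), and Pdk1, which keeps pyruvate out of mitochondria, at 72.2 CPM, against 33.97 CPM (log2 1.06). Plod2, a collagen-modifying hydroxylase, was 2.63 higher on the log2 scale, Ndrg1 2.68, and the adenylate kinase Ak4 2.69, with 1.19, 2.80 and 2.40 in the other cells. P4ha2 and Tmem45a, at 2.94 and 3.64, fell under the filter on low genes without mixed cells.

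The glycolytic enzymes followed, with 12 of 13 measured genes higher and none lower, also without mixed cells, where 13.1% and 9.02% of all genes were higher. The median log2 ratio of the glycolytic genes was 1.13, against 1.66 in the other kept cells, and 0.90 without mixed cells. Pgam1 had 991 CPM in hypoxia, against 287 CPM in normoxia, and Gapdh 3932 CPM, against 1773 CPM. Pgk1 was at 1.13, Ldha, which turns pyruvate to lactate, at 0.92 and Aldoa at 0.74, where the other cells had 2.36, 1.78 and 1.42. Hk1, the hexokinase of red cells, was the exception with 54.4 CPM in hypoxia and 56.8 CPM in normoxia (-0.06, -0.47 to 0.35), against 1.66 in the other cells. Whether the erythroid-like ratios differ from those of the other cells was not tested.

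**Figure D4:**
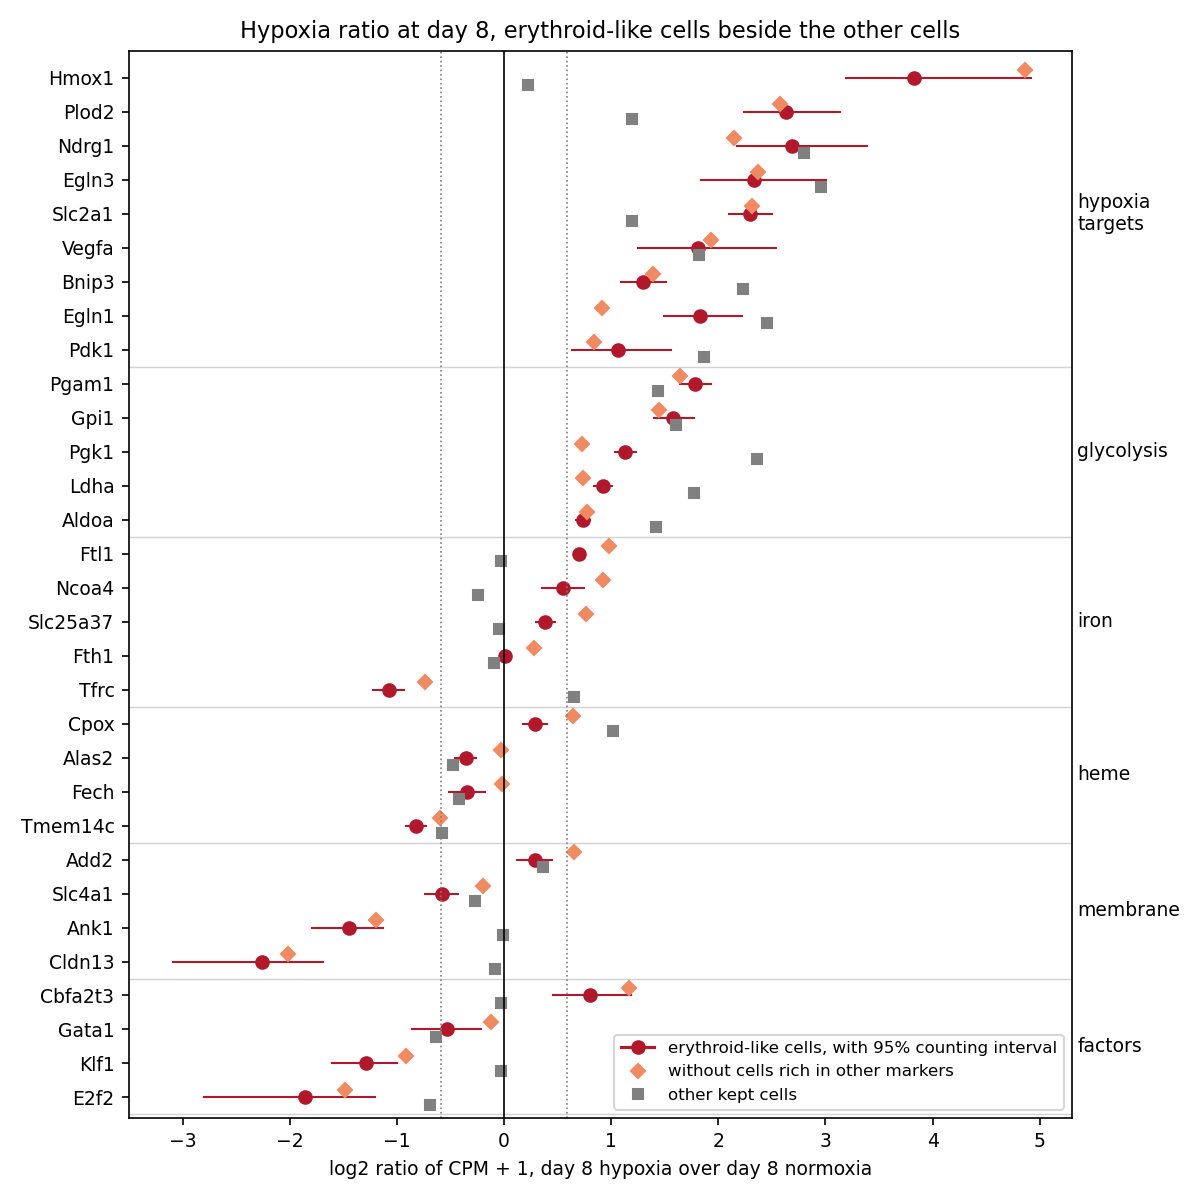
Log2 ratio of CPM + 1, day 8 hypoxia over day 8 normoxia, for named genes in erythroid-like cells (red circles with 95% counting intervals), the same without cells rich in other markers (orange diamonds) and the other kept cells (grey squares), with 1.5-fold dotted. Hmox1 and Slc2a1 lie further right in erythroid-like cells, and Tfrc lies below 0 in erythroid-like and above 0 in other cells. Of the heme genes, Cpox, Alas2 and Fech lie within the 1.5-fold lines in erythroid-like cells and Tmem14c lies below them. Without cells rich in other markers, Cpox lies above them.

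Hmox1 (mm10 chr8:75093621-75100589, plus strand), the heme oxygenase that breaks heme down to iron, biliverdin and carbon monoxide, showed the highest ratio of the 45 measured HIF targets. It had 127 CPM (265 UMIs) in hypoxia, against 8.03 CPM (13 UMIs) in normoxia, a log2 ratio of 3.83 (3.19 to 4.92). In the other kept cells Hmox1 was 37.7 CPM in hypoxia and 32.2 CPM in normoxia (0.22). Without mixed cells the erythroid-like values were 149 CPM in hypoxia and 4.17 CPM in normoxia. In day 10 normoxia Hmox1 stood at 103 CPM from 13 UMIs, and at 35.2 CPM from 1 UMI in day 10 hypoxia, so the 2 conditions of day 10 cannot be ordered for this gene.

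Of the 10 iron genes measured, 1 was higher and 3 lower, and without mixed cells 3 were higher and 2 lower. The shares over all members are near those of all genes, 13.1% and 24.5%. Tfrc (mm10 chr16:32608920-32632794, plus strand), the transferrin receptor through which red cells take up iron, was lower, with 293 CPM in hypoxia, against 618 CPM in normoxia (-1.07, and -0.73 without mixed cells), and higher in the other cells (0.65). Ftl1, the ferritin light chain, had 4868 CPM, against 2990 CPM (0.70), and was at -0.03 in the other cells. Ncoa4, which hands ferritin over for iron release, was at 0.55 (0.93 without mixed cells), and mitoferrin Slc25a37 at 0.39 (0.77). The ferritin heavy chain Fth1 had 7658 and 7591 CPM in hypoxia and normoxia, within counting error of each other, and stood at 0.28 without mixed cells.

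The heme pathway itself moved little. Of 14 measured genes of heme synthesis and transport, 3 were lower and none higher, with a median of -0.33, and without mixed cells 2 of 15 were lower and 2 higher with a median of -0.05. Of all genes 24.5% were lower and 13.1% higher, and without mixed cells 35.9% and 9.02%. Alas2 had 804 CPM in hypoxia, against 1029.6 CPM in normoxia (-0.36, and -0.02 without mixed cells), and Fech, which inserts iron into the ring, 282 CPM, against 359 CPM (-0.35, and -0.02). Among the lower genes were Tmem14c, which moves a heme precursor into the matrix, at -0.82, and Slc25a39 at -0.66. Cpox, which carries out a middle step, was at 0.29, and 0.64 without mixed cells.

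Among transcription factors, 9 of 18 measured genes were lower and 2 higher, where 24.5% of all genes were lower. Without mixed cells 6 of 17 were lower and 1 higher, a share near the 35.9% of all genes that were then lower. Klf1 (mm10 chr8:84901928-84905291, plus strand) had 67.8 CPM in hypoxia, against 167 CPM in normoxia (-1.29, -1.60 to -0.999), and -0.91 without mixed cells. Gata1, the master factor of red cells, had 73.6 CPM, against 107 CPM (-0.53, and -0.12 without mixed cells), so its value came close to 0 without them. Tal1 was at -0.79 (-0.29), the cofactor Lmo2 at -1.19 (-0.76) and E2f2, which acts in the last divisions of red cells, at -1.86 (-1.49). Cbfa2t3 (ETO2), a corepressor in the Tal1 complex, was higher at 0.80 (1.16). Sox6, at 1.01, fell under the filter without mixed cells and stood at -1.19 in cells of at least 10% hemoglobin.

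The membrane list had 8 of 20 measured genes lower and none higher, against 24.5% of all genes lower. Without mixed cells 6 of 21 were lower and 1 higher, which is no larger a share than the 35.9% of all genes. The lowest ratio was that of Cldn13, a claudin of rodent erythroblasts, which had 11.1 CPM in hypoxia, against 56.8 CPM in normoxia (-2.26, -3.09 to -1.69), and was seen in 3.08% and 19.8% of cells thinned to equal depth. Icam4 was at -1.48, ankyrin Ank1 at -1.44, Trim10 at -1.41 and Epb42 (protein 4.2) at -1.13. The beta-spectrin Sptb had 238 and 235 CPM and Epb41 (protein 4.1) 623 and 597 CPM in hypoxia and normoxia, ratios of 0.02 and 0.06. Of other erythroid genes, Hemgn, a chromatin protein of erythroid cells, was at -1.96 (-1.76 without mixed cells). Slc25a21 had 262 CPM in hypoxia, against 827 CPM in normoxia (-1.66), and the water channel Aqp8 156 CPM, against 59.9 CPM (1.36).

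In the erythropoietin list, the receptor Epor was at -0.51 (42.3 CPM in hypoxia and 60.5 CPM in normoxia), its kinase Jak2 at -1.07 and the kinase Lyn at -1.34, with 3 of 9 lower and none higher. Without mixed cells 4 of 9 were lower and 1 higher, and both counts are near the shares over all genes. Pim1, a kinase that STAT5 induces, was at 0.34, and 0.70 without mixed cells. Among genes of maturation and mitophagy, 3 of 17 were higher and 1 lower, where 13.1% and 24.5% of all genes were. Without mixed cells 6 and 2 of 18 were, where 9.02% and 35.9% of all genes were. Bnip3l (NIX), needed to clear mitochondria from red cells and also a HIF target, had 822 CPM, against 526 CPM (0.64, where the other cells had 1.52), and its relative Bnip3 was at 1.29. The LC3-type autophagy proteins Map1lc3b and Gabarap were at 0.49 and 0.52 (0.75 and 0.58 without mixed cells), and Tent5c, a poly(A) polymerase, at 0.79 (1.08).

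Genes of G2 and M phase were lower more often than all genes. In 20 of 41 measured genes the level was lower, and in none higher, with a median of -0.58, where 24.5% of all genes were lower, and without mixed cells 31 of 41 were lower with a median of -1.16, where 35.9% of all genes were. In the other kept cells 9 of 53 were lower and 1 higher, with a median of -0.39. Mki67 had 52.9 CPM in hypoxia, against 145 CPM in normoxia (-1.44), Hmmr was at -1.65, Nusap1 at -1.51 and the kinesin Cenpe at -1.44, where the other cells had -0.57, -0.20, -0.60 and -0.17. S phase genes were lower in 9 of 21 cases, and none was higher, with a median of -0.51, whereas 27 of 35 were lower in the other cells with a median of -0.90. Without mixed cells 10 of 15 were lower. Cells matched at 10% to 40% hemoglobin and without mixed ones had 23 of 36 G2 and M phase genes lower and 1 higher.

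Mitochondrial RNA was lower in 5 of 13 genes with a median of -0.52, whereas 11 of 13 were lower in the other cells with a median of -1.16. Without mixed cells 2 of 13 were lower and 2 higher, with a median of -0.35, which is the median of all genes there. The complex I gene mt-Nd3 was at -1.93 (-2.46 in the other cells), and mt-Nd1 at -0.75 (-1.33). mt-Co1, one of the most abundant, had 4731 CPM in hypoxia and 4995 CPM in normoxia (-0.08; chosen after its values were seen). Among nuclear oxidative phosphorylation genes, 24 of 78 were lower and none higher, and 32 of 78 were lower without mixed cells, shares near the 24.5% and 35.9% of all genes.

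Some chaperones of the endoplasmic reticulum were higher in the erythroid-like cells of hypoxia, Hspa5 (BiP) with 508 CPM in hypoxia, against 203 CPM in normoxia (1.32, and 1.33 without mixed cells). In the other cells Hspa5 was at -0.32. Hsp90b1 was at 1.38 (0.78) and Dnajb9 at 1.58 (1.78). In the same list of stress responses Trib3, which ATF4 induces, was lower at -1.20 and higher in the other cells (1.24), and the serine pathway gene Psat1 was at -1.14. The list as a whole had 4 of 17 genes higher and 6 lower, and 4 and 6 of 18 without mixed cells. Of all genes 13.1% were higher and 24.5% lower, and without mixed cells 9.02% and 35.9%. Immediate early genes were lower in 7 of 11 cases and higher in 1, with Dusp1 at -2.45, Ier2 at -1.38 and Jund at -1.03, where the other cells had 0.08, -0.04 and 0.23. Without mixed cells 6 of 8 were lower and none higher, Dusp1 at -3.36 and Ier2 at -3.28 (30.00 UMIs in hypoxia, against 327 in normoxia). Egr1, at -1.32 over all members, was at -4.67 without mixed cells (8.000 UMIs, against 255). Ier3 was the higher one at 1.71 over all members. These genes also respond to dissociation, and the part of that step was not tested.

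Genes were also ranked by this ratio where they had a mean of at least 50 CPM and at least 50 UMIs over both conditions. Markers of other cell types, mitochondrially encoded genes, Rps and Rpl genes, and genes named by clone, Gm or Rik were left out. Among the genes so ranked without mixed cells, those of highest ratio after Hmox1 were Rspo3, Atg14, Plod2, Ints6l, Egln3 and Slc2a1, a ranking made after seeing the data. Rspo3, a secreted amplifier of Wnt signals, had 259 CPM in hypoxia, against 20.2 CPM in normoxia (3.62), with -0.01 in the other cells. The autophagy gene Atg14 had 108 CPM, against 15.99 CPM (2.68), and Ints6l, an Integrator subunit relative, 926 CPM, against 159.9 CPM (2.53), with 0.24 and -0.16 in the other cells. Over all members the highest ranks were Igfbp3, Hmox1, Ghr, Ptprk, Setbp1, P4ha2, Rspo3, Tenm3, Mest, Ndrg1, Kcnq5 and Plod2. Of these, Igfbp3, Ghr, Ptprk, Setbp1, P4ha2, Tenm3, Mest and Kcnq5 fell under the filter without the mixed cells. The lowest ranked over all members included Diaph3 at -2.20, the histone genes Hist1h1b at -2.04 and Hist1h1c at -1.77, the phosphatase Ptp4a3 at -2.01, Elf1 at -1.69 and Romo1, a small mitochondrial protein, at -1.70. Without mixed cells the lowest ranked were Egr1 at -4.67, Ier2 at -3.28, Hist1h1b at -3.19 and Rhob, a small GTPase, at -2.98, with -0.21, -0.04, -0.79 and 0.21 in the other cells.

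At day 10 the erythroid-like cells were too few for most genes. The 7 cells of hypoxia held 28430 UMIs outside hemoglobin and the 13 of normoxia 126660, so only the 177 genes of at least 500 CPM were compared, a limit chosen after the UMI totals were known. Of these, 43 (24.3%) were higher and 29 (16.4%) lower in hypoxia, whereas TMM factors gave 18 higher and 43 lower, moving the median of all ratios by -0.35, and without mixed cells 35 were higher and 35 lower. Summed over lists, the non-hemoglobin erythroid markers had 3553 CPM in hypoxia (101 UMIs), against 8258 CPM in normoxia (1046 UMIs), and heme genes 2357 CPM, against 3727 CPM. Glycolysis genes summed to 10939 CPM in hypoxia, against 7366 CPM in normoxia, with 3 of 6 measured genes higher and none lower, and HIF targets outside glycolysis to 9216 CPM, against 8274 CPM, a log2 ratio of 0.16 that is smaller than the shift between scalings. Mitochondrially encoded genes summed to 4397 CPM in hypoxia, against 7035 CPM in normoxia, and the median of the 4 genes measured, -1.01, turned to 0.12 when cells of at least 1% hemoglobin were taken. Gata1 and Klf1 had no UMI in the 7 cells of day 10 hypoxia, where a count of 0 allows up to 3 UMIs or 106 CPM. Klf1 had 71.1 CPM and Gata1 23.7 CPM in day 10 normoxia, so no difference was detectable at this depth.

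With age, in normoxia, the 13 cells of day 10 were set against the 110 of day 8 over 1089 genes of at least 100 CPM, of which 180 (16.5%) were higher and 329 (30.2%) lower at day 10. TMM factors gave 291 higher and 241 lower there, moving the median of all ratios by 0.25. Mitochondrially encoded genes were lower in 10 of 10 cases with a median of -2.08, and summed to 7035 CPM at day 10, against 25001 CPM at day 8. In the other kept cells of normoxia these genes summed to 40610 CPM at day 10, against 38628 CPM at day 8. Heme genes were lower in 8 of 10 cases, Tmem14c at -0.97 and Abcb10, a mitochondrial transporter that supports heme synthesis, at -2.82, while Alas2 was at 0.30 (0.06 to 0.54). G2 and M phase genes summed to 1066 CPM at day 10, against 3716 CPM at day 8, and S phase genes to 521 CPM, against 1333 CPM. Tfrc was at -1.64, Slc25a37 at 0.38 and Fth1 at 0.16. Iron genes as a list summed to 18009 CPM at day 10, against 13684.5 CPM at day 8. Of the 13 cells of day 10 normoxia 3 were mixed, and without mixed cells 190 genes were higher and 320 lower.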

How the data were processed

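Each library held single-cell 3′ tag counts from embryoid bodies. The deposited values were whole-number UMI counts per gene and barcode, made by the authors with Cell Ranger 7.1.0 on mm10, per the submitters' processing notes. Intron counting: not given in the sources used here. Barcodes numbered 3489, 3374, 4746 and 2802, with 78354814, 85379390, 77012257 and 63117306 UMIs, in the order day 8 hypoxia, day 8 normoxia, day 10 hypoxia and day 10 normoxia. Erythroid-like cells were chosen by the hemoglobin rule given above, and their counts were summed per library and divided by the UMIs outside the 7 hemoglobin genes. Ratios are log2 of CPM + 1. Genes needed a mean of 20 CPM at day 8, 500 CPM at day 10 and 100 CPM between ages, the last 2 limits set after the UMI totals were seen. Intervals are exact Poisson, exact binomial (Clopper-Pearson) or conditional binomial ones at 95%, checked on simulated data, and cover counting error only. No doublets were removed: Scrublet, run in scanpy, called too few cells to be used, so removing its highest scores was an alternative, as were TMM factors from edgeR. The genes named were, of at least 50 CPM and 50 UMIs, the 12 highest and 12 lowest ratios at day 8, the 20 highest over other cells, up to 6 past 1.5-fold per list, and defining members of each list. Rankings over all genes left out mitochondrially encoded genes, Rps and Rpl genes, and genes named by clone, Gm or Rik. Those of the day 8 ratio also left out markers of other cell types. The members, lists and limits were chosen with earlier results of these data known. Gene coordinates are those of mm10 and promoters are RefSeq sequence of GRCm38.p6. No separate cultures stand behind a condition, so nothing was tested. Some genes that met these rules are not reported here.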

Additional observations from a re-analysis of the deposited data

Results flagged for a closer look

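Some lists had opposite signs of the hypoxia over normoxia ratio of their summed level in erythroid-like cells of day 8 and day 10, and these differences between ages were not tested. G2 and M phase genes were at -0.60 on the log2 scale at day 8 and 1.21 at day 10. The day 10 value came from 70 UMIs in hypoxia and 135 in normoxia, and none of these genes reached the 500 CPM limit there. Megakaryocyte markers were at -1.42 at day 8 and 0.87 at day 10, where 24 of the 25 marker UMIs of hypoxia came from 1 cell. Fibroblast markers were at 1.28 at day 8 and -5.36 at day 10, and smooth muscle markers at 2.16 at day 8 and -2.80 at day 10, with 1 fibroblast UMI and 3 smooth muscle UMIs in day 10 hypoxia. Without mixed cells the day 8 median over the 5 fibroblast genes still measured was -0.24, and that of G2 and M phase genes was -1.16. Fibroblast markers were among those that defined mixed cells, so a fall in them was built into that choice.

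Barcodes that failed the filters on genes or mitochondrial share also held at least 2% hemoglobin UMIs, 14 in day 8 hypoxia and 13 in day 8 normoxia, with a highest share of 38.0% and 48.7%. Of these 14 and 13, 14 and 12 had too few genes, and their median UMI numbers were 927 and 1597.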

How the results depend on the processing

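No paired analysis was possible because each condition has 1 library. Other limits on membership moved the share of kept barcodes that were erythroid-like: at least 10% hemoglobin gave 3.08% in day 8 hypoxia, 2.71% in day 8 normoxia and 0% in day 10 hypoxia, and so no day 10 hypoxia ratio. Day 10 hypoxia held 13 cells at 1% and 3 at 5% hemoglobin, against 7. At least 1000 genes gave 0.0232% there, and leaving out mixed cells 3.56% in day 8 hypoxia. The embryonic share of hemoglobin UMIs moved little: it was 84.1% and 83.8% in day 8 hypoxia and normoxia at 10% hemoglobin, and 83.9% and 85.2% with cells weighted equally, where day 10 normoxia had 63.6%. Without mixed cells it was 84.1% and 84.2% at day 8 and 85.7% and 68.3% at day 10, hypoxia before normoxia. Genes higher in day 8 hypoxia numbered 407 at 10% hemoglobin, 430 without the highest Scrublet scores, 417 without mixed cells and 403 in unmixed cells of 10% to 40% hemoglobin, against 680. A minimum of 50 CPM left 340 higher and 418 lower, and no minimum 2890 and 5851. At day 10, 19 genes were higher in hypoxia at 1% hemoglobin and 18 with TMM factors, which gave 291 genes higher at day 10 than at day 8 in normoxia. Signs turned for ratios past 1.5-fold in Sox6 at day 8 (-1.19 at 10% hemoglobin and -0.17 without the highest Scrublet scores), the median of oxygen sensing genes at day 8 (-0.00789 with cells weighted equally), and that of mitochondrially encoded genes at day 10 (0.12 at 1% hemoglobin). Without mixed cells, so did the day 8 median of fibroblast markers (-0.24, against 1.20), which were among the markers that defined mixed cells, so a fall was built into that choice. Among smaller medians, that of stress genes at day 8 was -0.21 without mixed cells, against 0.17, and that of iron genes with age -0.09, against 0.10. TMM factors turned the median of all genes at day 10 to -0.06, against 0.29, and with age to 0.12, against -0.14. The cause was not tested. Depth limits day 10 hypoxia most, where 3 UMIs are 106 CPM.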
